A study of Mus musculus with 9 samples.

Results

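The comparison here sets mouse oocytes with the later targeting of Mtor in this series, by Cre recombinase under the Zp3 promoter (MZ), against wild-type oocytes (WT). It covers every named gene with at least 1 FPKM in at least 3 of the 6 WT and MZ libraries, which gave 9759 genes of 24228. FPKM is the number of fragments scaled to the length of the transcript and the size of the library, so levels are per length and can be set side by side between genes. The samples are fully grown oocytes at the germinal vesicle stage, taken from C57BL/6 females 46 h after 5 IU of the gonadotropin PMSG, and each group has 3 libraries. A further group, in which the Cre was under the Gdf9 promoter and acts from an earlier stage of oocyte growth (MG, 3 libraries), entered the fit and is used to show where MZ also differed from it. All 3 groups received the same priming, and the labels do not say whether the wild-type oocytes carried floxed alleles. Both promoters drive Cre in the oocyte, so the somatic cells of these follicles keep Mtor. The age is 6 months in the sample labels and 23 days in the series design. Whether the libraries of a group come from different animals is not stated, and the p-values refer to the variation among these libraries, part or all of which may be technical.

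Mtor encodes the kinase of the complexes mTORC1 and mTORC2, which couple nutrients and growth factor signals to translation, ribosome production, lysosome function and autophagy. A fully grown oocyte is nearly silent in transcription and lives on a store of maternal mRNA made during growth, which later feeds meiotic maturation and the first divisions of the embryo. The transcript pool of such an oocyte therefore records mostly what was made and kept during growth. The comparison asks how the later targeting of Mtor altered that pool.

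The pools of MZ and WT oocytes were close. Of the 9759 genes, 1 was higher in MZ at an adjusted p under 0.05 (0.0102%) and 0 were lower (limma on log2(FPKM + 1), Benjamini-Hochberg over all genes). At an unadjusted p under 0.05 there were 646 genes (6.62%), 271 higher (2.78%) and 375 lower (3.84%). In 556 genes all 3 MZ values lay above all 3 WT values (5.7%), and in 693 all lay below (7.1%), 12.8% together. The median log2 fold change over all genes was 0.01, and the middle 50% of genes lay between -0.27 and 0.30. The single call depended on the libraries: without WT 1 the gene that passed was another, described with complex I, and 1030 genes had an unadjusted p under 0.05, while without MZ 3 none passed and 503 did so (limma). Across genes, libraries correlated at Pearson r = 0.918 to 0.920 within WT, 0.925 to 0.941 within MZ and 0.905 to 0.940 between the groups, a description over genes of shared libraries.

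How small a change could have been seen depended on the level. The 95% interval of the log2 fold change lay within 1 of no change, that is within a doubling or halving, in 3708 genes. These were 79.7% of the 893 genes at a mean of 100 FPKM or more, 70.4% of the 2081 genes between 20 and 100 FPKM, 38.2% of the 3001 genes between 5 and 20 FPKM and 10.2% of the 3784 genes below 5 FPKM. For most genes under 20 FPKM a 2-fold change was therefore not excluded. In simulated libraries of this depth the test recovered 79 of 100 genes changed 4-fold and 17 of 100 changed 2-fold. It covered 8834 genes there and called 5 unchanged ones. The changed genes were drawn only from those with a WT mean of at least 5 FPKM, so these shares do not cover lower genes. The spread was set to 1 value for all genes, taken from genes above 20 FPKM, and the libraries were drawn independently. Recovery at each level was not tested, and recovery in the real libraries may differ. The libraries were estimated at 636700 to 806600 fragments in WT and 668000 to 1045600 in MZ, and 1 fragment in a transcript of 1 kb was worth 1.517 to 2.371 FPKM.

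**Figure D1:**
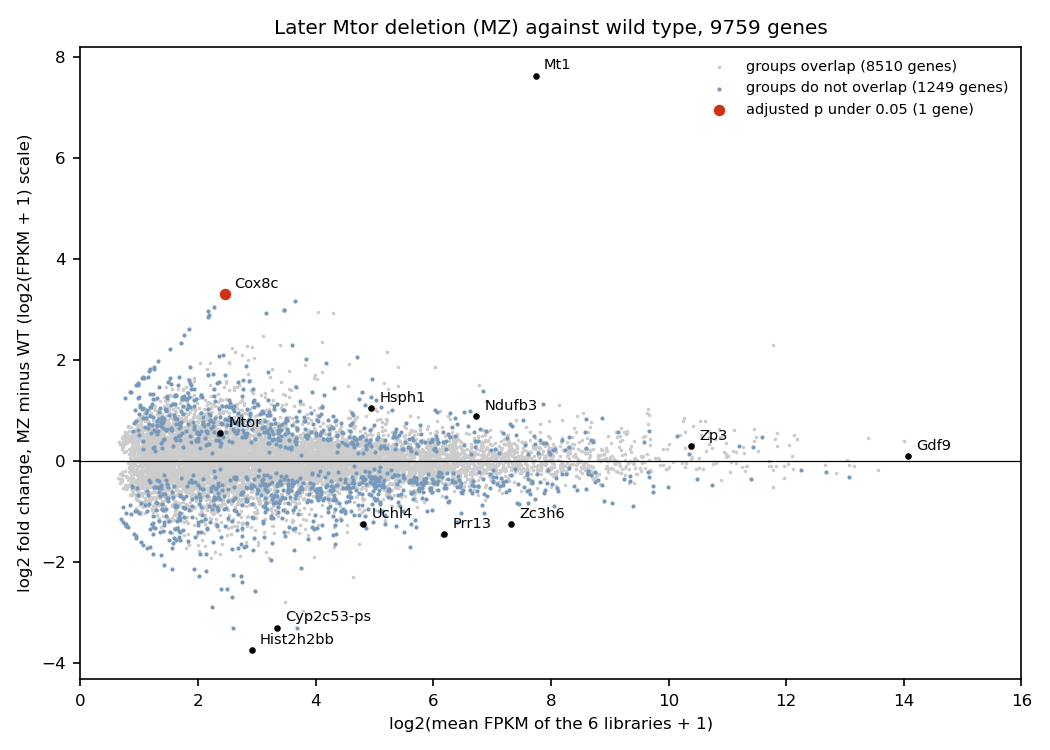
Each point is 1 of the 9759 genes, with the log2 of the mean FPKM of the 6 libraries plus 1 on the horizontal axis and the log2 fold change of MZ over WT on the vertical axis. Blue points are the 1249 genes whose groups do not overlap and the red point is Cox8c, while Mt1 stands alone at 7.62 and the spread narrows towards high levels.

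The targeted gene and the genes whose promoters drive Cre were looked at first. Mtor was at 3.25, 3.33 and 2.95 FPKM in WT and 6.55, 4.67 and 4.39 FPKM in the libraries labelled MZ. All 3 MZ values lay above the WT values, with a log2 fold change of 0.56 (95% interval -0.12 to 1.24, limma adjusted p = 0.78). The value of a whole gene also counts reads outside the deleted exons, and the locus holds another gene of the table, so it does not check the deletion. Gdf9, the oocyte growth factor, was at 16684 ± 1115 FPKM in WT and 17816 ± 648 in MZ (SD, n = 3 each). Zp3, a zona pellucida glycoprotein, was at 1194 ± 130 and 1470 ± 73.3 FPKM in the same order (limma adjusted p = 0.89).

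The libraries carried the markers of oocytes. All 16 oocyte markers passed the filter on level, and their FPKM values summed to 41226 to 49885 in WT and 48772 to 51168 in MZ. Of 26 granulosa and cumulus cell markers 10 were at 0 in all 6 libraries, among them Foxl2, Lhcgr, Amh and Cyp11a1, and the list summed to 22.7 to 35.4 FPKM in WT and 24.5 to 29.7 in MZ. The other 16 were detected. Cyp19a1 was the highest of them, at 16.5 to 25.7 FPKM in WT and 14.1 to 15.5 in MZ. Kitl was at 0.35 to 1.15 FPKM in WT and 1.82 to 3.55 in MZ. Of 30 markers of theca, stroma, endothelium, blood and immune cells, 4 were at 0 in all 6 libraries, and MZ 3 held the highest value in 11 of the 26 others. Their sums were 93.5, 93.0 and 115 FPKM in WT and 48.1, 117 and 271 in MZ. In bulk libraries, more cells of a type and more RNA per cell cannot be told apart. MZ 3 stood apart in this list, with Lyz2, a macrophage lysozyme, at 149 FPKM against 16.3 and 54.3 in MZ 1 and MZ 2 and 36.2 to 43.0 in WT.

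Cox8c was the gene whose higher level in MZ passed the test. It encodes a subunit of cytochrome c oxidase, the last complex of the respiratory chain, in an isoform known mainly from testis. The gene lies on chromosome 12 (102899316 to 102900526, plus strand, GRCm38). All 3 WT and all 3 MG libraries listed it at 0, and it reached 10.8, 7.17 and 9.11 FPKM in MZ, so the groups did not overlap. The limma adjusted p was 0.017 against WT. It was 0.017 against MG as well, a comparison in which 13 genes passed (0.133%). On a transcript of 458 bases these values correspond to about 2.09, 2.17 and 2.23 fragments per library, so the call rests on a few fragments. With all WT libraries at 0, Cox8c could enter the comparison only because all 3 MZ libraries reached 1 FPKM, so the filter itself favoured a difference in this gene. The call was lost in 11 of 22 alternatives. These were a pseudocount of 0.1, a filter of 5 FPKM, the test against a 1.5-fold change, both replicate blocks, and leaving out WT 1, WT 3, MG 3 or any MZ library. Its adjusted p ranged from 0.000931 to 0.446 over the 22.

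Other genes with this presence pattern were as thinly covered. In 25 genes all WT libraries were at 0 and all MZ libraries above it. The 22 of them with a known length had a median of 2.03 fragments per MZ library and none reached 10 fragments. In 20 genes the pattern was reversed, with a median of 2.14 fragments per WT library over 19 genes and again none at 10. The filter acted on all of these genes as it did on Cox8c, and these counts support nothing further. Phpt1, a phosphohistidine phosphatase, belongs to the first kind, at 6.99, 4.58 and 11.5 FPKM in MZ (limma adjusted p = 0.054), as do Tmem205, a membrane protein, at 4.78, 12.4 and 3.89 FPKM (0.11) and Erdr1 at 8.52, 5.53 and 6.91 FPKM (0.33). Tmem205 shares its locus with another gene. Hist2h2bb, a replication-dependent histone H2B gene, belongs to the second kind, at 9.25, 19.6 and 10.3 FPKM in WT and listed at 0 in every MZ library (limma adjusted p = 0.29). MG libraries held Phpt1 at 5.54 to 15.8 FPKM and Tmem205 at 7.50 to 19.7 FPKM, levels near those of MZ.

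The gene of metallothionein 1 had the largest log2 fold change of the 9759 genes. Mt1 encodes a small cysteine-rich protein that binds zinc and copper, and its transcription responds to metals through the factor Mtf1. WT libraries held 0, 0 and 8.26 FPKM of it, MZ libraries 453, 516 and 302. Every MZ library was far above every WT library, and MG held 17.1, 0 and 13.7 FPKM. The log2 fold change was 7.62 ± 1.07 (SE, 95% interval 5.27 to 9.98), and the adjusted p of 0.053 missed the threshold (limma). Its size depended on the pseudocount, at 5.92 with 5 FPKM and 9.89 with 0.1 FPKM. Unlike Cox8c it rests on many fragments, about 207, 369 and 175 in MZ against none, none and 3.85 in WT. Like Cox8c, however, Mt1 entered the comparison only through its MZ values, so the filter favoured a difference in this gene too. Mt1 passed the test in 4 of 23 alternatives, with limma adjusted p from 0.0015 to 0.42. Among the MZ libraries Mt1 was lowest in MZ 3, where the stroma and immune markers were highest. Whether other cells contributed to the level of Mt1 was not tested.

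Other zinc genes were measured beside it, and none passed. Of 30 metallothionein and zinc transporter genes, 16 passed the filter on level and 2 had MZ above WT without overlap, Mt1 and, by a narrow margin, the zinc transporter Slc30a3 (207 to 334 FPKM in WT, 334 to 350 in MZ). Over all genes this share was 5.7%. The neighbouring gene Mt2 was at 15.1 FPKM in MZ 2 and listed at 0 in the other 5 libraries, and Mt3 was listed at 0 in all 6. Mt4 was at 35.2, 0 and 0 FPKM in WT and 36.2, 24.6 and 15.8 in MZ. Mtf1 was at 6.40, 11.0 and 8.50 FPKM in WT and 16.3, 11.2 and 10.9 in MZ, so that its groups overlapped. The median log2 fold change of the 16 genes was 0.28, against 0.01 over all genes.

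Hsph1, Ndufb3, Miox and Spire1 were also at higher levels in MZ without passing. Hsph1, a chaperone of the Hsp110 family, was at 19.8, 24.8 and 13.5 FPKM in WT and 38.7, 34.5 and 48.0 in MZ, a log2 difference of 1.05 with a standard error of 0.24 (limma, adjusted p = 0.38). MG libraries held 79.1 to 93.0 FPKM of it, above every MZ library (MZ against MG, limma adjusted p = 0.079). Ndufb3, an accessory subunit of respiratory complex I, was at 84.5, 65.5 and 68.8 FPKM in WT and 134, 166 and 112 in MZ. The log2 difference was 0.90 with a standard error of 0.21 (limma, adjusted p = 0.38), and it was higher in MZ than in MG (adjusted p = 0.035). Miox, an enzyme that oxidises inositol, was at 133 ± 25.7 FPKM in WT and 232 ± 14.3 in MZ (SD, n = 3 each). Spire1, an actin nucleator used in oocyte division, was at 143, 102 and 127 FPKM in WT and 187, 209 and 201 in MZ (limma adjusted p = 0.53). For these 4 genes all 3 MZ libraries lay above all 3 WT libraries. Mrpl42, a mitochondrial ribosomal protein, and Rbm4, a splicing regulator whose locus holds other genes, were near 0 in 2 WT libraries each. In MZ they were at 16.3 to 24.8 and 15.4 to 18.5 FPKM. Both passed the filter on level only through their MZ values, so the filter favoured a difference.

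Of the genes at lower levels in MZ that did not pass, the cytochrome P450 pseudogene Cyp2c53-ps came nearest. It was at 20.4, 12.01 and 19.6 FPKM in WT, at 1.81, 1.16 and 0 in MZ and listed at 0 in all 3 MG libraries (limma adjusted p = 0.053). It is one of a family of near-identical genes, so reads may be split between copies. Zc3h6, a zinc finger protein of the CCCH type, was at 164, 220 and 298 FPKM in WT and 88.6, 93.8 and 95.1 in MZ, a log2 difference of -1.25 with a standard error of 0.24 (limma, adjusted p = 0.28). The WT libraries spread widely and the MZ libraries hardly at all. Prr13, a proline-rich protein, was at 75.5, 114 and 128 FPKM in WT and 27.9, 45.8 and 40.8 in MZ (log2 difference -1.44, standard error 0.29, limma adjusted p = 0.28). Uchl4, of the ubiquitin C-terminal hydrolase family, was at 31.4, 38.8 and 45.1 FPKM in WT and 19.2, 12.4 and 15.4 in MZ (limma adjusted p = 0.21). MG libraries held 48.4 to 60.6 FPKM of Uchl4, and MZ was lower than MG (limma adjusted p = 0.029). Uchl4 shares its locus with another gene and has close relatives.

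Other low members of this group had the same order. Ceacam10, a cell adhesion glycoprotein, was at 20.7 ± 3.82 FPKM in WT and 6.54 ± 1.98 in MZ. Pts, which makes an intermediate of tetrahydrobiopterin, was at 14.0 ± 1.87 and 2.87 ± 0.68 FPKM, and Zscan10, a zinc finger transcription factor of pluripotent cells, at 8.09 ± 1.03 and 1.81 ± 0.83 FPKM. Bcas2, a spliceosome component, was at 37.2 ± 7.59 and 15.3 ± 4.55 FPKM, and the antiproliferative gene Btg2 at 13.4 ± 3.68 and 3.80 ± 1.91 FPKM (SD, n = 3 in each). The limma adjusted p of these 5 genes lay between 0.18 and 0.33, and in each of them no MZ value reached the lowest WT value.

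**Figure D2:**
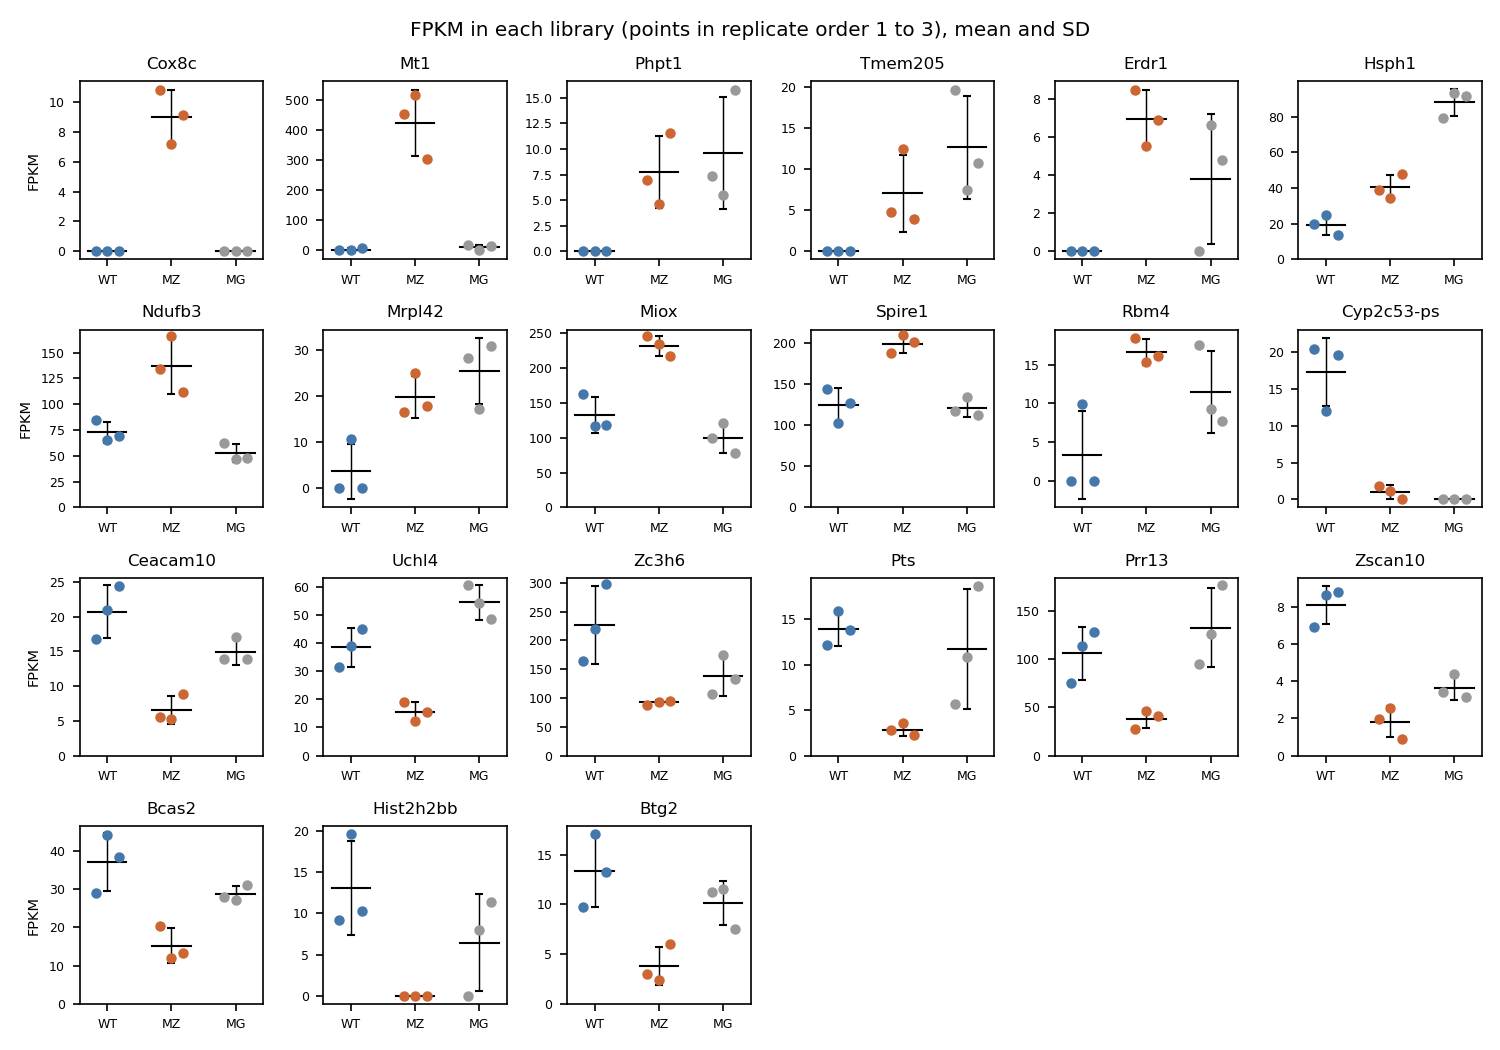
FPKM of Cox8c and, in each direction, of the 10 genes with the smallest p among those without overlap, with a mean of at least 5 FPKM in the higher group and no clone name, 1 panel per gene with its own vertical axis, for WT, MZ and MG. Points are libraries, the horizontal line is the mean and the bar is the SD of 3 libraries. The MZ points of Cox8c and Mt1 lie apart from both other groups, while MG lies nearer to MZ than to WT in Phpt1 and Cyp2c53-ps.

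Genes of mTOR signalling itself showed no common direction. Of 65 listed components 50 passed the filter on level, of which 24 had a positive and 26 a negative log2 fold change, with a median of -0.02. None passed the test. In 6 of them all MZ values lay above all WT values and in 3 below, beside 5.7% and 7.1% of all genes. Prr5, a subunit of mTORC2, was at 23.3 ± 6.50 FPKM in WT and 38.1 ± 4.23 in MZ. Eif4ebp1, the translation repressor that mTORC1 phosphorylates, was at 5.29, 5.75 and 5.98 FPKM in WT and 3.02, 1.95 and 2.43 in MZ (limma adjusted p = 0.85). Lamtor1, which anchors the Rag GTPases to the lysosome, was at 158 ± 15.4 and 125 ± 18.4 FPKM (SD, n = 3 each).

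Ribosome genes, whose mRNAs are classical targets of mTORC1 at the level of translation, varied more between WT libraries than between groups. Of 61 cytosolic ribosomal protein genes tested 40 were positive and 21 negative, with a median log2 fold change of 0.28, and none passed. The list's median deviation from the mean was 0.43, -0.15 and -0.26 (log2) in WT 1, WT 2 and WT 3 and 0.48, 0.35 and 0.27 in MZ 1, MZ 2 and MZ 3. WT 1 thus lay with the MZ libraries, and without it the list's median log2 fold change was 0.71. Rpl7 was at 25.4, 12.3 and 9.58 FPKM in WT and 35.4, 39.5 and 31.1 in MZ (limma adjusted p = 0.54), and Rpl15 went the other way, at 36.1 ± 2.11 and 26.1 ± 3.67 FPKM (SD, n = 3 each). Ribosomal protein genes have many processed copies in the genome, so their FPKM values are uncertain. Mitochondrial ribosomal proteins (75 tested, 35 positive), translation factors (51 tested, 31 positive), aminoacyl-tRNA synthetases (19 tested, 11 positive) and ribosome biogenesis genes (42 tested, 25 positive) had medians from -0.04 to 0.11. Eif3h, a subunit of initiation factor eIF3, had the largest positive difference of the translation factors without overlap, at 15.5, 14.8 and 8.75 FPKM in WT and 22.2, 22.8 and 28.4 in MZ (limma adjusted p = 0.62). Eif2b3, a subunit of the exchange factor eIF2B, went the other way, at 6.06, 4.70 and 8.11 FPKM in WT and 0, 4.25 and 3.96 in MZ.

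Genes of protein degradation and of stress had small median differences, and none passed. Over all genes, 5.7% lay above WT without overlap and 7.1% below, to be set beside the counts that follow. Of 43 proteasome genes 23 were positive (median 0.02), with 5 above and 3 below WT without overlap. The subunit Psma1 was at 43.8 ± 8.05 FPKM in WT and 87.6 ± 17.2 in MZ and Psmb1 at 107 ± 15.7 and 71.9 ± 6.79 FPKM. Of 34 autophagy genes none had MZ above WT without overlap and 6 had MZ below it, against 7.1% of all genes, while 21 of the 34 log2 fold changes were positive. Vmp1, which acts in autophagosome formation, was at 24.7, 40.7 and 57.0 FPKM in WT and 23.6, 20.5 and 24.1 in MZ. The margin between its groups was narrow, and its locus holds other genes. Rb1cc1, a subunit of the autophagy-starting kinase complex, was at 18.4 ± 3.15 FPKM in WT and 12.1 ± 1.69 in MZ. Of 36 lysosome genes 21 were positive (median 0.11), of 32 endoplasmic reticulum stress genes 18 (0.08), of 42 chaperone genes 27 (0.17, with 5 above and 4 below WT without overlap) and of 32 oxidative stress genes 23 (0.15). Calr, a calcium-binding chaperone of the endoplasmic reticulum, was at 117 ± 24.5 FPKM in WT and 196 ± 35.9 in MZ (SD, n = 3 in each pair here), and none of these genes passed the test.

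In energy metabolism, more complex I subunits were lower than higher. Of 33 subunits 21 were negative, with a median of -0.19 and a wide range from -2.95 to 2.94. Ndufb9 was at 76.5, 71.4 and 51.6 FPKM in WT and 34.2, 40.9 and 14.0 in MZ (limma adjusted p = 0.56), the opposite order to Ndufb3. Ndufa3, named after its values were seen, was at 26.1, 0 and 0 FPKM in WT and 25.9, 17.9 and 23.2 in MZ, so WT 1 lay with MZ, and it is the gene that passed without WT 1 (limma adjusted p = 0.66 with all libraries and 0.0045 without WT 1). Of the 42 subunits of complexes II to V 23 were positive (median 0.10), with Cox8c the gene that passed, and Cox7c, another cytochrome c oxidase subunit, was at 69.7 ± 10.2 FPKM in WT and 25.1 ± 16.9 in MZ. Glycolysis and TCA enzymes (37 tested, median 0.06) and sterol and fatty acid synthesis genes (21 tested, median 0.04) lay close to the all-gene median.

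Among genes that oocytes make for growth and fertilisation, levels were mostly a little higher in MZ, and none passed. The 16 oocyte markers had a median log2 fold change of 0.33, with 12 positive, and without WT 1 the median was 0.49. Their median deviation from the WT mean (log2) was 0.24, -0.19 and -0.05 in WT 1, WT 2 and WT 3. In MZ 1, MZ 2 and MZ 3 it was 0.29, 0.37 and 0.36. Oocyte transcription factors (13 tested) and nuclear maternal-effect genes (34 tested) had smaller medians, 0.06 and 0.07. Bmp15, the partner of Gdf9, was at 3048, 2374 and 2359 FPKM in WT and 3725, 3674 and 3414 in MZ (log2 fold change 0.48, limma adjusted p = 0.77). Cd9, the tetraspanin needed for sperm fusion, was at 42.2, 105 and 54.6 FPKM in WT and 108, 114 and 161 in MZ, and Zp2 at 128 ± 23.3 and 175 ± 14.3 FPKM. In the subcortical maternal complex (9 tested, median 0.27), Padi6 was at 459 ± 112 FPKM in WT and 668 ± 21.5 in MZ, and Tle6 at 954 ± 265 and 1312 ± 29.8 FPKM. In both WT 1 was close to MZ, at 587 and 1257 FPKM. The median deviation of this list was 0.38 in WT 1, above the 0.23, 0.30 and 0.28 of MZ 1, MZ 2 and MZ 3. Figla, a transcription factor of oocyte genes, went the other way, at 39.2, 50.9 and 39.8 FPKM in WT and 22.1, 23.0 and 25.1 in MZ (log2 fold change -0.85 ± 0.20, SE, limma adjusted p = 0.38). The most abundant mRNAs of WT oocytes, Zbed3, Ubb, H1foo, Dppa3, Tcl1, Obox2, Bcl2l10, Obox1 and Mphosph6 beside Gdf9, had log2 fold changes between -0.32 and 0.39. Dppa3, which protects the maternal genome from demethylation, was at 7013 ± 750 FPKM in WT and 6059 ± 222 in MZ (SD, n = 3 in each pair here).

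No gene of the meiotic lists passed. Of 57 spindle, kinetochore and checkpoint genes 34 were negative (median -0.06), among them Kif2c, a microtubule-depolymerising kinesin, at 60.5, 67.1 and 75.9 FPKM in WT and 39.2, 44.4 and 48.8 in MZ (limma adjusted p = 0.58). Mad2l2, which restrains the anaphase-promoting complex, was at 9.81 ± 5.19 FPKM in WT and 23.5 ± 3.62 in MZ (SD, n = 3 each). Of 30 prophase arrest genes 15 were positive (median -0.01), and 22 cohesin and synaptonemal genes had a median of 0.06. Of 29 genes of the anaphase-promoting complex with Mos 19 were positive (median 0.15). In the last of these lists 6 genes had MZ above WT without overlap and 1 had MZ below WT without overlap. In the prophase arrest list these counts were 2 and 2, and over all genes the shares were 5.7% and 7.1%. Prkar2b, a regulatory subunit of protein kinase A, was at 13.6, 11.6 and 12.7 FPKM in WT and 5.47, 4.38 and 8.14 in MZ (limma adjusted p = 0.63). Of 53 genes of mRNA storage and decay 34 were positive (median 0.12), and Nanos1, a translational repressor of germ cells, was at 28.2 ± 2.01 FPKM in WT and 15.7 ± 1.85 in MZ.

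DNA methylation and Polycomb genes were mostly on the higher side. Of 34 such genes 27 were positive, with a median of 0.19, and in 8 all MZ values lay above all WT values while in none all lay below. Over all genes these shares were 5.7% and 7.1%. The list's median deviation from the WT mean (log2) was 0.17, 0.01 and -0.13 in WT 1, WT 2 and WT 3. In MZ 1, MZ 2 and MZ 3 it was 0.35, 0.27 and 0.12, so WT 1 lay above MZ 3. Dnmt1, the maintenance DNA methyltransferase, was at 104, 76.8 and 43.6 FPKM in WT and 119, 119 and 108 in MZ (log2 fold change 0.71, limma adjusted p = 0.75). Cbx2, a Polycomb subunit that binds methylated histone H3, was at 19.4, 14.4 and 8.34 FPKM in WT and 24.4, 28.5 and 20.8 in MZ (limma adjusted p = 0.70). None of the 34 passed. Of 33 histone genes 20 were negative (median -0.19), and these belong to families of near-identical copies. Of 28 transcripts known from the embryo's 2-cell stage 9 passed the filter on level, of which 7 were negative with a median of -0.39. Tcstv1 was at 391, 398 and 456 FPKM in WT and 274, 267 and 299 in MZ (limma adjusted p = 0.61), and Tcstv3 at 98.2 ± 23.8 and 41.4 ± 27.3 FPKM (SD, n = 3 each). These 2 genes are close copies of each other.

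**Figure D3:**
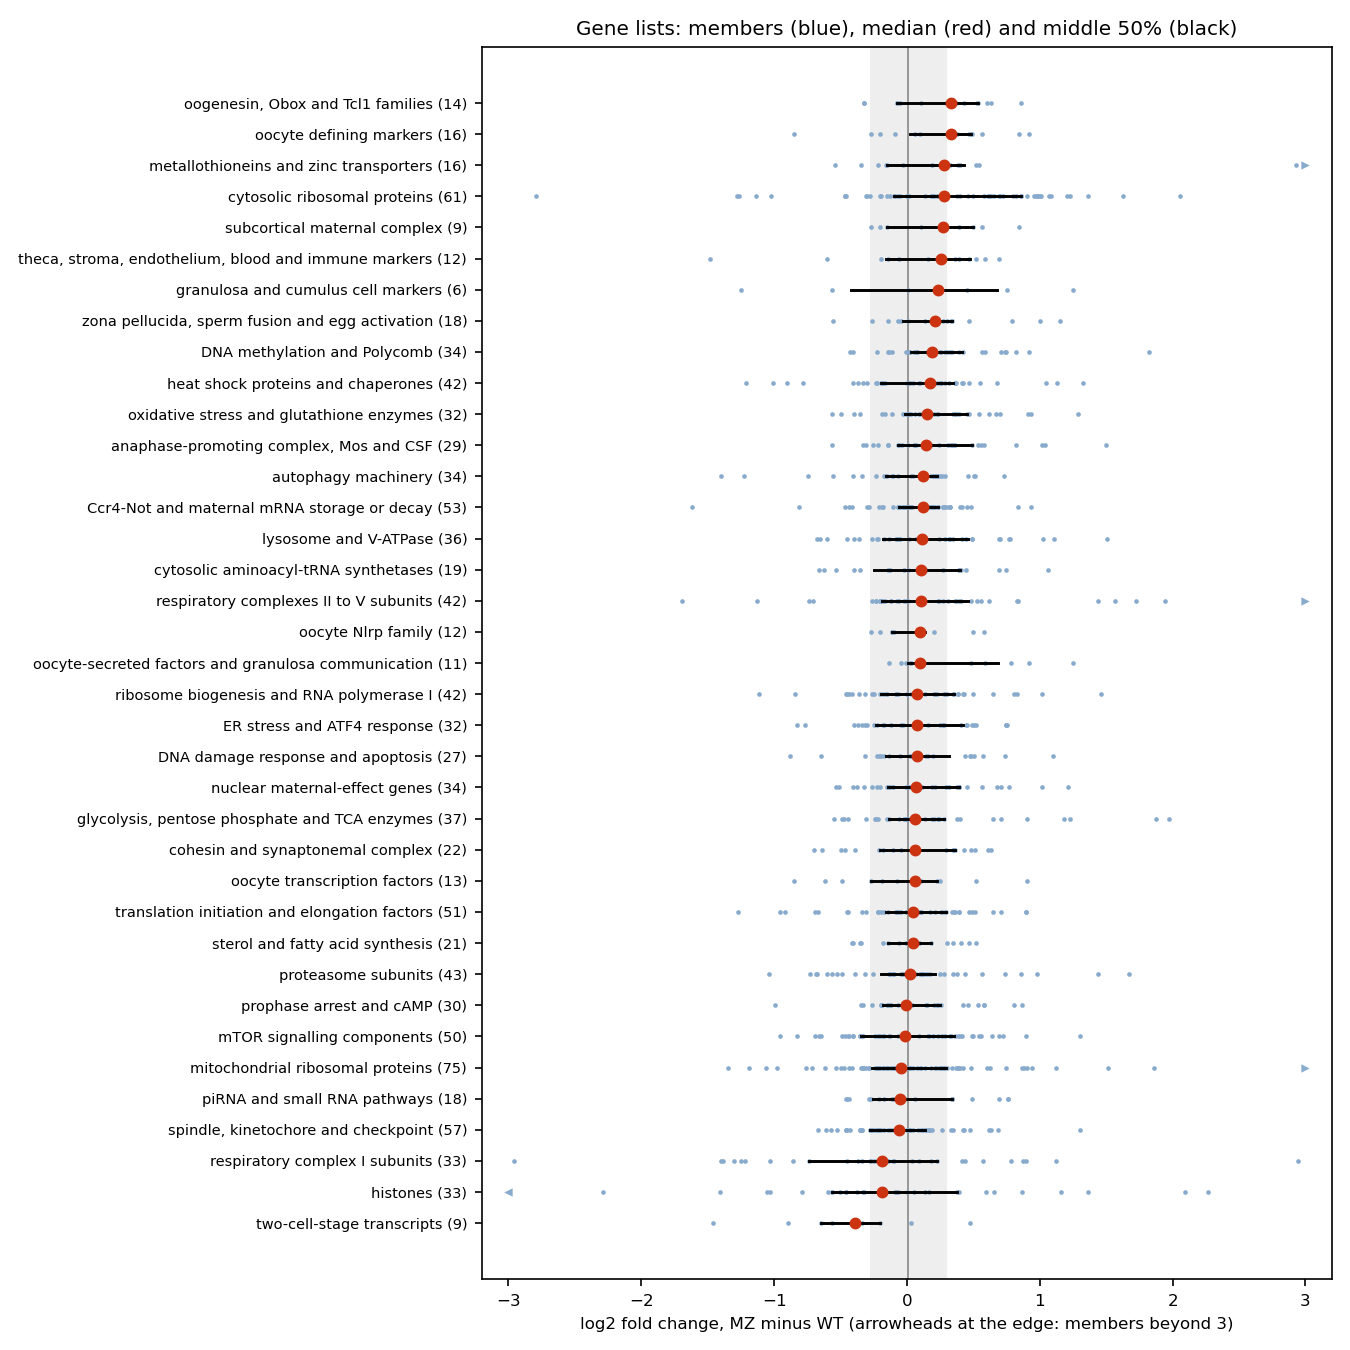
Log2 fold change of MZ over WT for the members of 37 gene lists (blue), with the median (red) and the middle 50% (black) of each list and the number tested in brackets. The grey band is the middle 50% of all tested genes, -0.27 to 0.30, and medians run from -0.39 for 2-cell-stage transcripts to 0.33 for the oogenesin, Obox and Tcl1 families and the oocyte markers.

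The authors' deposited table, made with Cuffdiff, gave other calls. At a q under 0.05 it held 85 of the 9759 genes (0.871%, or 2.55% of the 3335 genes with a deposited p below 1), of which 29 were higher and 56 lower in MZ. In the limma fit none of the 85 passed, and 18 of the 29 and 45 of the 56 had an unadjusted p under 0.05, beside 2.78% and 3.84% of all genes. The 85 were chosen by a test on the same libraries, so these shares support nothing. The higher genes included the tubulins Tuba4a, Tuba1c and Tuba1a, the Tcl1 family member Tcl1b4, Cd9, Psma1 and Hsph1. The lower genes included Zc3h6, Prr13, the glycolytic Eno1b, the mitochondrial channel Vdac2, the RNA polymerase III subunit Polr3k, the hyaluronidase Hyal2 and the clock gene Per3.

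In many of these genes WT 1 lay nearer to the MZ libraries than WT 2 and WT 3 did. Tuba4a was at 476, 168 and 182 FPKM in WT and 488, 454 and 475 in MZ, and Tuba1c at 339, 121 and 118 FPKM in WT and 354, 333 and 425 in MZ. In both genes WT 1 lay within the range of the MZ libraries, and WT 2 and WT 3 far below. Per3 showed the mirror image, at 32.9, 81.6 and 86.2 FPKM in WT and 32.0, 39.0 and 34.4 in MZ. WT 1 was the highest WT library in 22 of the 29 higher genes and the lowest in 46 of the 56 lower genes, where over all genes it was highest in 32.8% and lowest in 34.6%. It reached the range of the MZ libraries or went past it in 12 of the 29 and 13 of the 56. The groups did not overlap in 15 of the 29 and 42 of the 56 genes, beside 5.7% and 7.1% of all genes, again in genes chosen on these libraries. Without WT 1 the median log2 fold change of the higher genes went from 0.86 to 1.18 and that of the lower genes from -0.82 to -1.03, and again none passed (limma). Tubulin genes are near-identical in sequence, so their FPKM values are uncertain.

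In Psap another library stood apart. Psap, the precursor of lysosomal saposins, was at 18.2, 28.7 and 18.9 FPKM in WT and 22.7, 25.9 and 89.1 in MZ, so that MZ 3 carried the difference. Its log2 fold change was 0.78 with MZ 3 and 0.17 without it. The same library had the highest stroma and immune markers, with Cd68 at 17.5 FPKM against 2.18 to 8.60 in the other 5 libraries and Dcn at 31.3 against 8.34 to 18.4. Their part in the result was not tested. Among the lower genes, Lurap1l, at 250 ± 53.3 FPKM in WT and 138 ± 4.37 in MZ, and Tctex1d1, at 72.5 ± 20.1 and 29.4 ± 11.7 FPKM (SD, n = 3 each), had no overlap between the groups.

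**Figure D4:**
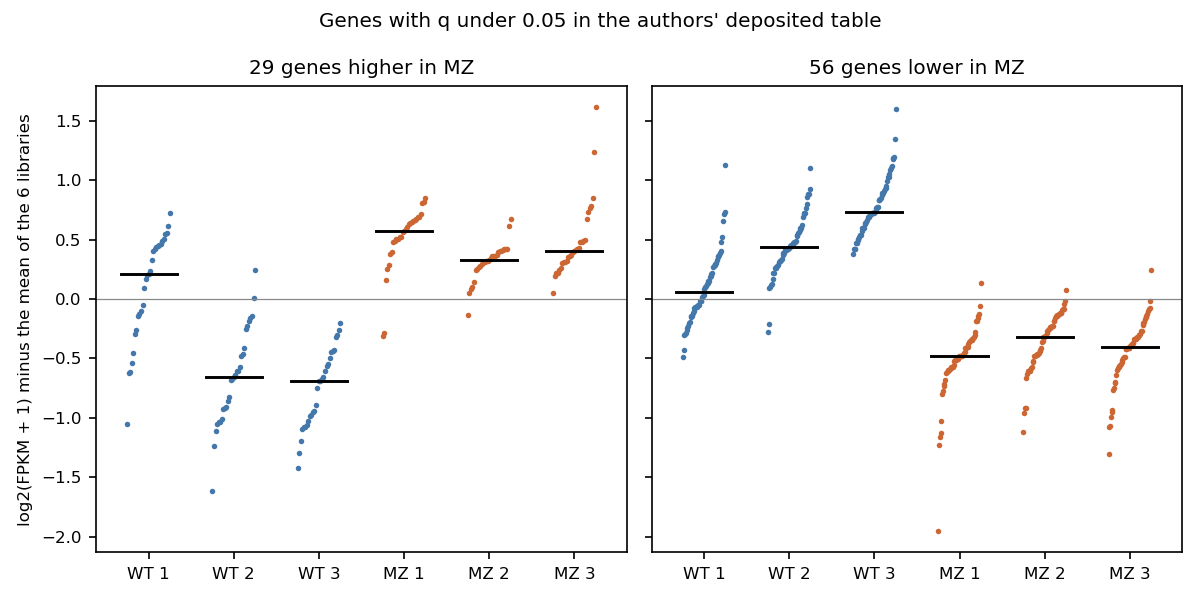
For the 29 genes higher and the 56 genes lower in MZ by the authors' deposited q, each point is 1 gene in 1 library, as log2(FPKM + 1) minus the mean of the 6 libraries, sorted within the library. Black lines are medians, and among the higher genes WT 1 has a median of 0.21 while WT 2 and WT 3 lie at -0.65 and -0.69.

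The total signal did not separate the groups. FPKM values summed to 652537 ± 67110 per library in WT and 670216 ± 10778 in MZ (SD, n = 3 each, exact permutation test, two-sided, p = 0.7, where 0.1 is the smallest p that 3 against 3 libraries allow). FPKM gives shares of a library, so these sums do not measure the RNA content of an oocyte.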

How the data were processed

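RNA of fully grown oocytes was amplified by Smart-seq2 and made into libraries with a NEBNext Ultra kit, per the labels' protocols. Per the submitters' processing notes and the series design, the authors aligned reads to mm10 with TopHat2 2.0.13 and deposited FPKM from Cufflinks 2.2.1. The deposited p-value and q-value come from Cuffdiff, per the series design. The sources used here do not state how counting treated strand.

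Of 24255 rows, 27 with date-like names were left out. Names were matched to GENCODE M21 (GRCm38) for 23105 (95.4%), and 1977 of the 9759 genes share a locus with another. Log2(FPKM + 1) was fitted with limma 3.58.1 in R 4.3.3, with 9 libraries in 1 fit, 6 residual degrees of freedom and a variance trend. Tests were two-sided, with Benjamini-Hochberg adjustment over all genes and a threshold of 0.05. Fold changes on this scale understate those of low genes, and a value of 0 can be a failed estimate. Fragments were estimated from the steps between low values of 1780 single-transcript genes and the longest transcript, and are approximate and not independent molecules. The limma fit was tested on simulated data that took these fragment estimates as given, so the estimates themselves were not tested.

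Named genes are Mtor, Gdf9, Zp3, the passing gene, up to 10 non-passing genes per direction with the smallest p, no overlap and a mean of 5 FPKM, up to 2 such genes per list and direction by size, up to 10 of the authors' calls per direction, the 10 most abundant in WT, and cell type markers. Clone names were left out, and not all are printed. The genes compared and the 37 lists were chosen with earlier results of these data known. Alternatives covered pseudocount, filter, scaling, variance model, libraries in the fit, a replicate block and leaving out each library.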

Additional observations from a re-analysis of the deposited data

Results flagged for a closer look

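In the 3 genes flagged here the difference between MZ and WT was itself different from that between MG and WT, tested as MZ against MG in the same fit. Of all genes 13 passed that test (0.133%), these 3 among them. Cox8c was 3.31 higher in MZ than in MG on the log2(FPKM + 1) scale (limma adjusted p = 0.017), a size that depends on the pseudocount because the gene is listed at 0 in every MG library. Cox8c passed the filter only through its MZ values, at about 2.09 to 2.23 fragments per MZ library. The contrast with MG sets these same MZ values against 0, as the contrast with WT does, and adds no separate support. Ndufb3 was 1.37 higher in MZ than in MG (limma adjusted p = 0.035), at 112 to 166 against 46.9 to 62.5 FPKM. Uchl4 differed by -1.75 between MZ and MG (limma adjusted p = 0.029), at 12.4 to 19.2 against 48.4 to 60.6 FPKM. Ndufb3 and Uchl4 did not pass against WT. Both were named for their MZ values against WT. The contrast with MG uses the same MZ libraries and adds no separate support for a difference from WT.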

How the results depend on the processing

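The count of 1 gene moved with the settings. It was 2 with a pseudocount of 0.1 (Phpt1 and Tmem205, without Cox8c), and 2 with no filter and with the same FPKM sum in each library, 4 with a pseudocount of 5, 3 with WT and MZ libraries only and 7 without a variance trend, and 0 with a filter of 5 FPKM and against a 1.5-fold change. With the upper quartile the calls at an unadjusted p under 0.05 were 339 higher and 317 lower. Leaving out 1 library gave 0 to 6 genes, with 6 without MG 1. The count of called genes that also differed between MZ and MG was 0 with a pseudocount of 0.1, a filter of 5 FPKM or the 1.5-fold test, and 0 to 1 with 1 library left out. The count of genes with an interval within 1 was 8058 with a pseudocount of 5 and 5738 with no filter. With the replicate number as a block the count was 0, and 0 with WT and MZ only. The labels give no pairing, and same-numbered WT and MZ libraries deviated together at r = 0.041, -0.033 and 0.029, so the samples share only a number. Over all 9 pairs of a WT and an MZ library r lay between -0.070 and 0.048, and not every library correlated best with its own number.

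The difference in FPKM sums turned to -16338 without WT 2, and lay between -16338 and 50753 with 1 library left out. Of 128 named genes, 5 changed direction in an alternative: Gdf9 (-0.0917) and H1foo (0.0305) with quantile normalization, Bcl2l10 with the same FPKM sum (-0.0188), and with 1 library left out Obox2 (-0.205 without WT 2 to 0.0306 without WT 1), Bcl2l10 (-0.071 without WT 2 to 0.138 without WT 1) and Obox1 (-0.180 without WT 2 to 0.0446 without WT 1). None of these 5 passed in any setting. Of the genes named by rule that did not pass, 8 did so in at least 1 alternative, Cyp2c53-ps in 5, and genes outside the rule such as Ndufa3 did so too. List medians kept their sign over 11 alternatives in 20 of 37 lists, 17 positive and 3 negative. Alternatives with the added filter of 5 fragments and the block on 2 groups were chosen after seeing the data. The cause of these changes was not tested. Depth limits the genes below 5 FPKM most.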
